A study of Glycine max with 21 samples.

Results

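A set of 200 soybean gene models was high in roots after 6 and 12 hr of salt and low in every other group of the series. The set was picked from 62537 gene models by its own expression values. For each group, the mean DESeq-normalized read count of its 3 libraries plus 10 was put on the log2 scale, and a score was computed as the lower of the 2 late salt levels minus the highest of the other 5 levels. A score of 1 or more was found for 1090 genes, and 875 of these also lay within 1 log2 unit of the control at 6 and at 12 hr of dehydration. The 200 highest scores among the 875 are described here. The same rule turned around, for genes high only at 6 and 12 hr of dehydration, found 7 genes.

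The samples were roots of soybean (Glycine max) cv. Williams 82 seedlings at the first trifoliolate stage, grown on moist germination paper. All groups were of this one cultivar and carried no transgene or mutation, and the time points were hours of stress. The 7 groups of 3 biological replicates were the control at 0 hr, dehydration for 1, 6 and 12 hr by leaving plants off the paper in air, and salt stress for 1, 6 and 12 hr in 100 mM NaCl. There was no control at later hours, and a difference from the 0 hr control therefore also covers the time between harvests. Salt was applied by moving the seedlings into the salt solution, and no group was moved into liquid without salt. The salt and the move into liquid therefore cannot be told apart, against the control or against dehydration. The libraries held 3752853 to 28177205 counts on gene models. The tissue label was not checked against marker genes, because the gene models could not be matched to gene names here. In whole roots, more cells of a type and more RNA per cell cannot be told apart.

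Salt reaches roots as a water deficit and as an ion load, whereas dehydration in air brings the water deficit without added sodium. Plants answer both through transcription factors, proteins that bind short DNA elements beside genes and raise or lower their transcription. WRKY, AP2-EREBP, MYB, NAC, bHLH, C2H2 zinc finger and HD-Zip proteins are large plant families of this kind, and members of each have been tied to abiotic or biotic stress responses. The expression of such factors usually changes before or together with that of the transporters, enzymes and protective proteins that they control.

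Most members went from few counts to high counts under late salt stress, and some had sizeable control levels. The median over the 200 genes of the group mean was 6.42 normalised read counts in the control. It was 6.42, 5.21 and 6.48 in the 1, 6 and 12 hr dehydration groups and 12.4 in the 1 hr salt group, and it reached 192 and 218 in the 6 and 12 hr salt groups. On the scale of the value plus 10, the median fold over the control was 10.1 at 6 hr of salt (4.16 to 62.2) and 11.6 at 12 hr (4.59 to 135). The rule fixed these differences, and they are given as a description. In the control, 122 members had a mean under 10, 36 had 3 counts or fewer over the 3 libraries, and 9 had no count. The control mean was 50 or more in 18 members and reached 560.

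The scores ran from 2.05 to 5.42 with a median of 2.60, and 59 members had a score of 3 or more. The border of the set is not a gap in the values. The last 3 members had scores of 2.06, 2.06 and 2.05, and the first 3 genes left out had 2.04, 2.03 and 2.03.

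Summed over the 200 genes, the normalised read count was 3774, 6133 and 3603 in the control libraries (replicates 1 to 3). It lay between 2644 and 8043 in the dehydration libraries and between 5581 and 7162 at 1 hr of salt. At 6 hr of salt it was 116310, 76922 and 22315, and at 12 hr it was 90336, 130324 and 56027. The members thus took 0.0387 to 0.115% of all counts in the 15 other libraries, 1.52, 1.04 and 0.326% at 6 hr of salt, and 1.199, 1.63 and 0.751% at 12 hr. The lowest late salt library, replicate 3 at 6 hr, was still above the highest of the 15 others in this sum.

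**Figure D1:**
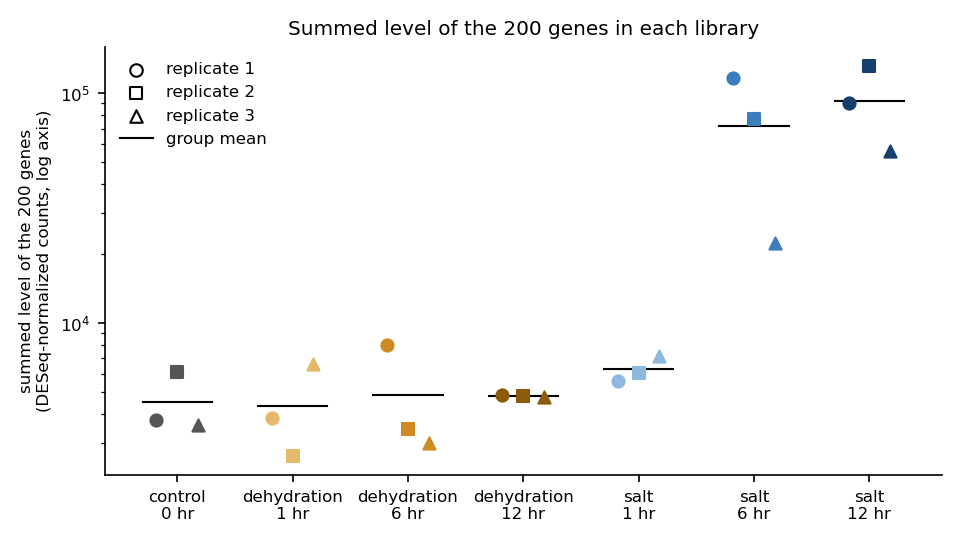
Summed DESeq-normalized read count of the 200 genes (log axis) in each of the 21 libraries, by group; symbols are replicates and lines are group means. The late salt libraries lie between 22315 and 130324 and all others at 8043 or lower, with replicate 3 of salt 6 hr far below its 2 fellow replicates.

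Replicate 3 of salt at 6 hr stood apart from its group, and this touches most results on the set. It was the lowest of the 3 libraries in 192 of the 200 members and the highest in 3. The median ratio of its level to the mean of replicates 1 and 2 was 0.151, or 6.63-fold lower, against 0.941 over 23496 other genes with a mean of 50 or more at 6 hr of salt. It was the lowest of the 3 in 41.6% of those other genes. In 675 genes that met the limits of the rule but were not among the 200, the median ratio was 0.390, and replicate 3 was the lowest in 85.9% of them. The library held 13759153 counts, the most of the 6 late salt libraries, while replicates 1 and 2 held 5259475 and 4202958. The study's table of libraries lists for it the lowest share of uniquely mapped reads of all libraries. The part of depth or of that share in the low levels was not tested. Nor was it tested whether the library is what its label says, so the 6 hr mean of a member is a mean over libraries that may not be alike in treatment.

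Replicates of the members were far apart in both late salt groups. The median SD divided by the mean was 0.779 at 6 hr and 0.556 at 12 hr over the members, against 0.211 and 0.166 over other genes with means from 50 to 1000. Replicates 1 and 2 at 6 hr exceeded all 15 other libraries in each of the 200 members. Replicate 3 was at or under the highest control in 41 members and at or under the highest of the 15 other libraries in 69. All 6 late salt libraries therefore exceeded all 15 others in 131 members, beside 1.6% of all gene models. Without replicate 3 of salt at 6 hr, the 5 remaining libraries did so in 190, beside 3.04% of all gene models. Since the rule used the means of these libraries, nothing is read from these counts.

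The depth of the drop in replicate 3 differed widely among the members. Its ratio to the other replicates was under 0.1 in 83 members, of which 8 had no count in it, and 0.5 or more in 16. Replicate 1 of salt at 12 hr was low in many of the same genes. Its median ratio to replicates 2 and 3 was 0.283 over the 83 members with the deepest drop, and 1.83 over the other 117. Over all 200 members, replicate 1 at 12 hr was the highest of the 3 in 103, and replicate 3 was the lowest in 126. Of the 53 members in which replicate 1 at 12 hr was under 0.5 of its fellow replicates, 47 belonged to the 83. Across the 200 members, the rank correlation of the 2 ratios was 0.548. Both libraries were sequenced in lane 2, as were the other libraries of salt at 6 hr, which were high, and the part of lane was not tested. Replicate 1 at 12 hr was at or under the highest of the 15 other libraries in 10 members, and replicate 3 at 6 hr was so in each of these 10.

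**Figure D2:**
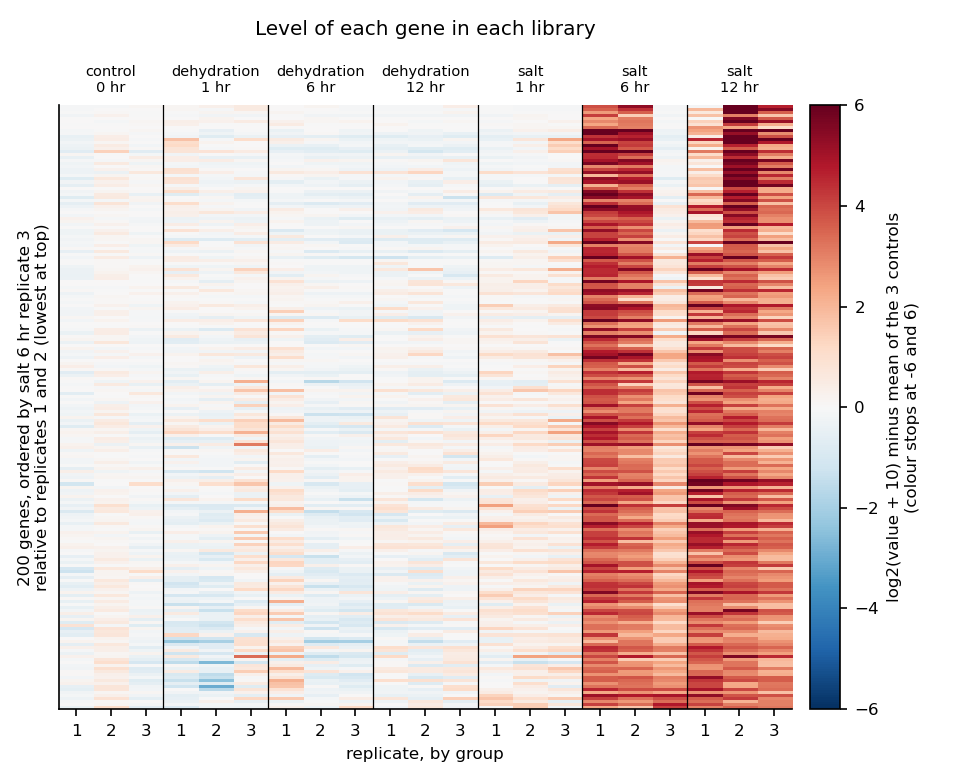
Level of each of the 200 genes (rows) in each of the 21 libraries (columns, replicates 1 to 3 in each group) as log2(normalised read count + 10) minus the mean of the controls, with rows ordered by the ratio of salt 6 hr replicate 3 to replicates 1 and 2, lowest at the top. Red is above the control; the late salt columns are red except for replicate 3 at 6 hr in the upper rows, where replicate 1 at 12 hr is also pale.

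Glyma05g25370 had the highest score and shows this split. Its normalised read count was 2.88, 3.95 and 5.40 in the controls and between 0 and 9.10 in the 12 libraries of dehydration and of salt at 1 hr. It was 999.8, 975.1 and 1.49 at 6 hr of salt and 64.7, 4100 and 854.7 at 12 hr. The 6 hr group thus overlapped the control through replicate 3 alone, and the 12 hr libraries ran from 64.7 to 4100. This gene model carries no class in the study's list of transcription factors, and its product is not given here.

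Because every member was chosen with the library in question, each late salt library was also left out of the rule in turn and the members chosen without it were looked up in it. The 200 members chosen without replicate 3 of salt at 6 hr shared 180 genes with the set. In that library, 158 of them were above all 3 controls, beside 24.5% of all gene models, and 128 were above all 15 other libraries, beside 8.79%. For the other 5 late salt libraries, 191 to 200 of the members chosen without them were above all controls and 185 to 200 above all 15 other libraries. The lowest of these values belonged to replicate 1 of salt at 12 hr. The 15 other libraries entered the rule in each round, so this is a check of the late salt libraries only.

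Lanes were not spread evenly over the groups. Lane 2 held all libraries of salt at 1 and 6 hr and replicate 1 of salt at 12 hr, and no control. Within lane 2, all 3 libraries of salt at 6 hr exceeded all 3 of salt at 1 hr in 150 members, beside 9.1% of all gene models, with a median log2 difference of 2.90. Replicate 1 at 12 hr exceeded all 3 in 192, beside 26.4%. In lane 3, replicate 2 of salt at 12 hr exceeded control replicate 3 in 200 members, beside 36.8%, with a median log2 difference of 3.92. In lane 4, replicate 3 of salt at 12 hr exceeded control replicates 1 and 2 in 200 members, beside 28%, with a median log2 difference of 2.89. The rule used the levels of all these groups, so these counts describe the members and nothing is read from them about lane.

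Tests used edgeR's quasi-likelihood method on the raw counts of all 21 libraries. A gene was called differentially expressed (DE) at an adjusted p under 0.05 and a fold change of 2 or more, with adjustment over all 36691 genes tested; all 200 members passed the filter on low counts. At 6 hr of salt 194 members were called up, where 6.49% of all tested genes were, and at 12 hr 198 were, where 7.18% were. The rule used both contrasts and nothing is read from these counts. The median log2 fold change was 4.90 and 5.12. When lane entered the model, 2 members were called at 6 hr, a group that lay in lane 2 alone, among 33 of all genes, and 185 at 12 hr among 2760. Without salt 6 hr replicate 3, 198 members were called at 6 hr among 4210. Under dehydration, which the rule bounded, no member was called after 6 hr (0.442% of all genes up and 1.59% down) or after 12 hr (0.392% up and 1.62% down). At an unadjusted p under 0.05, edgeR had 3 members up and 3 down at 6 hr, where 6.07% of all tested genes were up and 9.38% down, and 2 up and 3 down at 12 hr, where 4.76% were up and 7.70% down. The rule bounded these levels, and nothing is read from the shortfall. DESeq2 called 0 at 6 hr and 1 at 12 hr, and limma called 0 at both.

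After 1 hr of salt most members had a slightly higher mean than in the control. The rule set only an upper limit on this level, so it did not fix a direction. The mean at 1 hr of salt was above the control mean in 159 of the 200 members, with a median log2 difference of 0.31 on the scale of the value plus 10. In the edgeR fit 155 members had a positive log2 fold change, where 48.7% of all tested genes had one, and the median was 0.67 against -0.01 over all genes. Only 1 member was called up, or 0.5% where 0.867% of all genes were, and none was called down, where 0.73% were. At an unadjusted p under 0.05, 21 members (10.5%) were up and 1 was down, where 6.73% of all tested genes were up and 8.27% down. Salt at 1 hr was the highest of the 5 other groups in 113 members. The controls and these libraries shared no lane, so lane and group cannot be told apart here. With lane as a term no member was called, among 0 calls over all genes. No member was called either when any 1 of the 3 controls or salt 1 hr replicate 2 was left out. Calls over all genes were 586 with all libraries, 66, 88 and 628 without control replicate 1, 2 or 3, and 236 without salt 1 hr replicate 2. Without salt 6 hr replicate 3, 3 members were called, among 700.

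After 1 hr of dehydration the set had no common direction. The mean was above the control in 100 of the 200 members, and the median log2 difference was 0.00. No member was called by edgeR, where 1.15% of all genes were called up and 1.43% down. At an unadjusted p under 0.05, 5 members were up (2.5%) and 6 down, where 9.72% of all tested genes were up and 11.1% down. The rule set an upper limit on the level at 1 hr of dehydration too, and many members had few counts. Nothing is therefore read from the shortfall. DESeq2 called 1 up and 2 down, among 1729 calls over all genes, and limma called 0, among 1044. The edgeR count was 1 down without control replicate 3 or without salt 6 hr replicate 1, and 1 up without salt 6 hr replicate 3. In the 6 and 12 hr dehydration groups, 92 and 93 members were above the control.

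**Figure D3:**
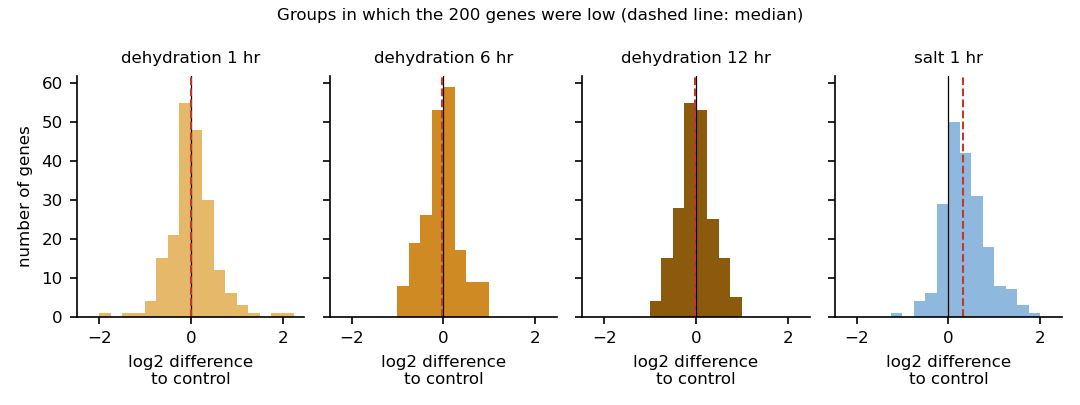
Distribution over the 200 genes of the log2 difference of group means to the control (value plus 10) in the 4 stress groups where they were low, with dashed lines at the medians. The median is 0.31 at 1 hr of salt and between -0.02 and 0.00 in the dehydration groups; the rule bounds the difference at 6 and 12 hr of dehydration to 1 on either side.

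Between 6 and 12 hr of salt 1 member was called. The rule used the lower of both levels, which favours genes that are high at both times. Replicates of the members were also far apart, so nothing is read from the counts given here. Glyma17g34220, which has no class, was the single member called up, where 0.0436% of all tested genes were, and none was called down, where 0.101% were. Its normalised read count was 48.1, 106 and 15.4 at 6 hr and 1015, 559 and 376 at 12 hr, against 0.958, 0 and 0 in the controls, so the groups did not overlap. The log2 fold change was 3.597 (SE 0.57, adjusted p = 0.0150). The adjusted p was 0.313 in a fit of only the 6 libraries compared. It was over 0.05 without replicate 1 of salt at 6 hr or replicate 1 at 12 hr, and the range over each of the 21 libraries left out was 0.0114 to 0.0819. At an unadjusted p under 0.05, 12 members were higher at 12 hr and none lower, where 6.03% and 7.58% of all tested genes were.

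The count of members that were higher at 12 hr depended on replicate 3 at 6 hr. The 12 hr mean was above the 6 hr mean in 122 members, and above the mean of replicates 1 and 2 in 81. On the scale of the value plus 10, the median ratio of 12 hr to 6 hr was 1.15 with all libraries and 0.886 without replicate 3. All 3 values at 12 hr lay above all 3 at 6 hr in 5 members, beside 9.37% of all tested genes, and below them in 0, beside 8.45%. The rule favours genes high at both times, so nothing is read from these shares.

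The study's list of salt-responsive transcription factors, classed with the SoyDB database, gave a class to 30 of the 200 members, and 790 genes of that list were tested here. The list holds transcription factors that the study called DE under salt in these same samples. It is not the whole of any class, and counts over its genes are no independent evidence of change or direction. Over all 36691 tested genes, 2382 of 3543 calls were up at 6 hr of salt, and 2634 of 4535 at 12 hr. The other calls were down, and the calls down in a class below stand beside these. The 30 members were 7 WRKY, 7 MYB/HD-like, 6 AP2-EREBP, 4 C2H2 zinc finger, 2 homeodomain, 2 bHLH, 1 NAC and 1 PHD gene. In 27 of the 30, all 6 late salt libraries exceeded the 15 others, beside 1.6% of all gene models. The remaining 3 were AP2-EREBP genes. The rule used these levels, and nothing is read from this count. The other 170 members have no class and are given as counts.

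WRKY factors bind the W-box element and are best known from pathogen defence, with members active under salt and drought. All 7 WRKY members had a mean above the control at 1 hr of salt. The same held for all 7 MYB/HD-like members, for 28 of the 30 classed members and for 131 of the 170 without a class. A higher mean at 1 hr was thus not particular to the WRKY members. Glyma14g11960 was the single member of the set called up then. Its normalised read count was 0.958, 1.58 and 0 in the controls and 18.5, 19.8 and 7.08 at 1 hr of salt, and it was 0 in all 3 libraries of dehydration at 1 hr. The 1 hr salt libraries lay above every control, with a log2 fold change of 4.03 (SE 0.81, adjusted p = 0.0224). The controls held 3 counts in all, so the fold is imprecise. The adjusted p was 0.653 with lane as a term, and it was 0.0153 to 0.116 over single libraries left out and rose over 0.05 when any 1 of the 3 controls or salt 1 hr replicate 2 was left out. Glyma05g31800 had 0.958, 12.6 and 3.86 in the controls and 48.2, 26.7 and 17.2 at 1 hr of salt, which did not overlap (log2 fold change 2.39, SE 0.77, adjusted p = 0.130).

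At 6 hr of salt the level of Glyma14g11960 was 175, 102 and 296, and at 12 hr 171, 81.9 and 79.0. Replicate 3 at 6 hr was its highest library, unlike in most members. Glyma17g33890, also a WRKY gene, had 500, 414 and 457 at 6 hr, so its 3 replicates were close, and 588, 196 and 202 at 12 hr, against 3.83, 8.70 and 3.09 in the controls. Its mean was 457 ± 42.8 (SD, n = 3) at 6 hr, 87.8 times the control mean. Over the 7 WRKY members the median ratio of replicate 3 to the other replicates at 6 hr was 0.343, with a range from 0.0710 in Glyma04g41700 to 2.13. In Glyma04g41700 the 6 hr levels were 404, 284 and 24.4 and the 12 hr levels 114, 103 and 58.0, so its mean was higher at 6 hr, though the libraries overlapped at replicate 3. Glyma08g43260 was the WRKY member with the highest control levels, 40.3, 40.3 and 15.4, and had 915, 520 and 334 at 6 hr and 1078, 528 and 440 at 12 hr. Glyma13g34250 had 2.88, 3.16 and 0.772 in the controls and already 11.5, 16.8 and 8.09 at 1 hr of salt, with no overlap, before 216, 194 and 70.2 at 6 hr and 222, 126 and 105 at 12 hr. Its difference at 1 hr did not pass the test (log2 fold change 2.36, SE 0.79, adjusted p = 0.147). Glyma19g26400 had 3.83, 10.3 and 7.72 in the controls, 293, 148 and 71.7 at 6 hr of salt and 205, 201 and 151 at 12 hr.

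All WRKY genes of the list, members included, are given as a description, since being changed under salt put them there. Of its 79 WRKY genes that were tested, 55 were called up at 6 hr of salt and 55 at 12 hr, with 0 down. Of all tested genes 6.49% and 7.18% were called up. The median log2 fold change was 2.26 at both times, and -0.03 and -0.04 over all tested genes. At 1 hr of salt 2 of the 79 were called up, beside 0.867% of all tested genes. At 6 and 12 hr of dehydration 0 of the 79 were called in either direction, and their medians were -0.66 and -0.39. Of all tested genes 0.442% were up and 1.59% down at 6 hr of dehydration, and 0.392% up and 1.62% down at 12 hr. At 1 hr of dehydration 1 of the 79 was called up and 0 down, beside 1.15% and 1.43%. The study, with its own tests, reports the WRKY class as overrepresented also among its genes DE at any hour of dehydration. WRKY genes outside the salt list are not counted here.

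AP2-EREBP proteins include the ethylene response factors and the DREB factors of drought and cold responses. Their 6 members had the lowest class median of the ratio of replicate 3 at 6 hr to its fellow replicates, 0.0768, or 13.02-fold lower. Glyma07g14060 and Glyma07g14070 are neighbouring gene models on chromosome 7 and had no count in any control. Glyma07g14060 had 125, 72.3 and 6.47 at 6 hr of salt and 172, 100 and 65.6 at 12 hr. Its 12 hr mean was at least 135-fold higher than the level that 3 counts over the 3 controls would give. It had 2.57, 2.97 and 11.1 at 1 hr of salt and 1.03, 7.19 and 5.45 at 12 hr of dehydration, and replicate 3 at 6 hr lay within this range. Glyma07g14070 had 87.4, 47.6 and 5.48 at 6 hr and 75.4, 42.1 and 22.7 at 12 hr. Near-identical stretches of neighbouring copies lose shared reads under unique mapping, so the relation of the 2 levels is uncertain. Glyma02g00870 had 0, 1.58 and 0.772 in the controls, 169, 175 and 4.48 at 6 hr and 26.2, 167 and 48.7 at 12 hr, and Glyma03g23330 had 0, 1.58 and 1.54, then 140, 93.5 and 8.46, then 131, 69.7 and 38.7 in the same groups. Glyma02g00870 had its lowest 12 hr value in replicate 1.

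Glyma15g08560 was the AP2-EREBP member with the highest control levels. It had 18.2, 24.5 and 19.3 in the controls, 401, 305 and 76.7 at 6 hr of salt and 135, 282 and 108 at 12 hr. All 6 late salt libraries were above the controls. Glyma10g00980 had 3.83, 17.4 and 3.86 in the controls, 227, 134 and 16.4 at 6 hr and 75.4, 116 and 68.9 at 12 hr, so replicate 3 at 6 hr lay under the highest control. Of 97 tested AP2-EREBP genes of the list, 47 were called up and 4 down at 6 hr of salt, and 51 up and 7 down at 12 hr. Over all 36691 tested genes, 2382 of 3543 and 2634 of 4535 calls at these hours were up and the rest down. The shares of all tested genes called up were 6.49% and 7.18%. At 6 hr of dehydration 1 of the 97 was up and 2 were down, beside 0.442% and 1.59% of all tested genes. At 12 hr of dehydration 1 was up and 6 were down, beside 0.392% and 1.62%. At 1 hr, 11 were up under salt (0.867% of all tested genes) and 15 under dehydration (1.15%). The list was chosen on the salt samples, and AP2-EREBP genes outside it are not counted.

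**Figure D4:**
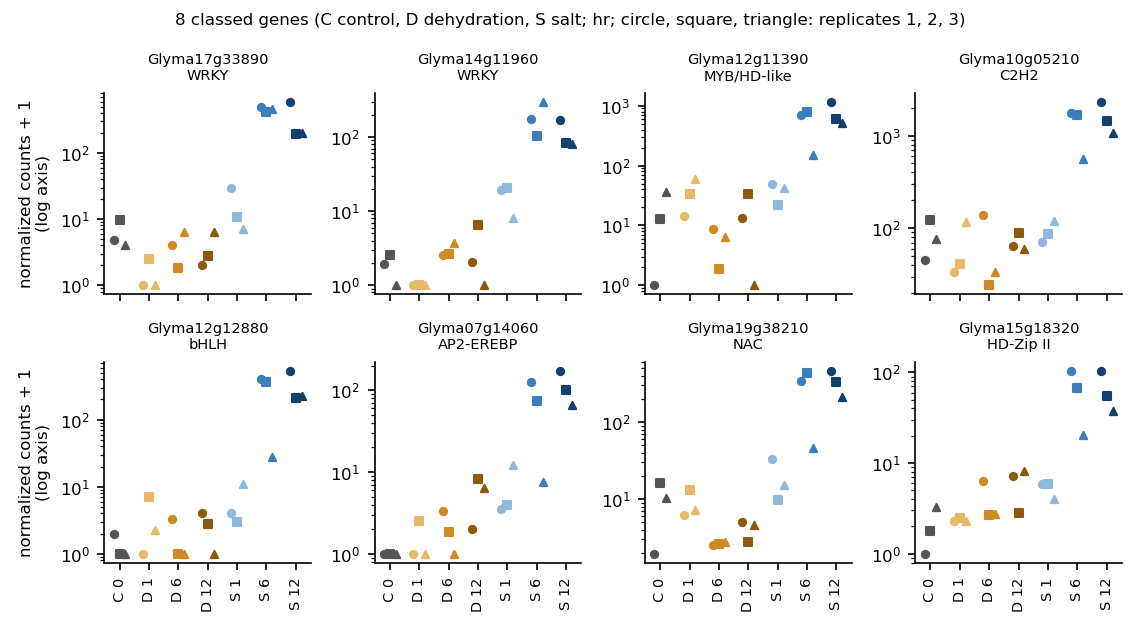
Normalised read counts plus 1 (log axis) of 8 classed genes in the 21 libraries, by group (C control, D dehydration, S salt, with hours). The late salt points lie above the others except for replicate 3 of salt 6 hr in Glyma07g14060, and replicate 3 is level with its fellow replicates or above them in the 2 WRKY genes.

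MYB proteins are DNA-binding factors with roles from secondary metabolism to root cell fate. In each of the 7 MYB/HD-like members all 6 late salt libraries exceeded the 15 others, beside 1.6% of all gene models. The rule used these levels, and nothing is read from this count. Glyma12g11390 had 0, 11.9 and 34.7 in the controls, 701, 783 and 149 at 6 hr of salt and 1150, 609 and 519 at 12 hr. Glyma12g11340, 3 gene models away on chromosome 12, had 0, 0 and 3.09 in the controls, 14.03, 9.88 and 27.3 at 1 hr of salt, 343, 584 and 46.3 at 6 hr and 463, 181 and 150 at 12 hr. Its difference at 1 hr did not pass the test (log2 fold change 3.77, SE 1.26, adjusted p = 0.143). Glyma06g45520 was the exception at 6 hr, with 120.97, 97.0 and 173, so replicate 3 was the highest there.

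The MYB/HD-like members Glyma06g45520, Glyma06g45550 and Glyma06g45570 lie within 6 gene models of each other on chromosome 6. Between them, Glyma06g45540 of the same class had a mean of 5.47 in the control, 787 at 6 hr and 602 at 12 hr of salt and a score of 1.499, and was therefore no member. Glyma06g45550 had 0, 16.6 and 40.9 in the controls, 576, 603 and 178 at 6 hr and 654, 251 and 257 at 12 hr. Glyma06g45570 had 0.958, 1.58 and 0.772, then 181, 106 and 27.9, then 168, 102 and 108 in the same groups. Away from this run, Glyma10g01340 had 0.958, 6.32 and 5.40 in the controls, 306, 182 and 13.4 at 6 hr and 166, 97.2 and 69.8 at 12 hr. Glyma05g35050 had 62.3, 56.1 and 39.4 in the controls, 227, 564 and 169 at 6 hr and 351, 458 and 386 at 12 hr, and was among the members not called at 6 hr (adjusted p = 0.0761). Its low groups were uneven, with 2.64, 6.00 and 109 at 1 hr of dehydration. Of 106 tested MYB/HD-like genes of the list, 34 were called up and 18 down at 6 hr of salt, and 36 up and 29 down at 12 hr. Over all 36691 tested genes, 2382 of 3543 and 2634 of 4535 calls at these hours were up and the rest down. The shares of all tested genes called up were 6.49% and 7.18%. At 6 hr of dehydration 3 of the 106 were up and 16 down, beside 0.442% and 1.59% of all tested genes. At 12 hr of dehydration 2 were up and 17 down, beside 0.392% and 1.62%.

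C2H2 zinc finger proteins include repressors of the ZAT kind, known from salt and drought responses in Arabidopsis. The 4 C2H2 members form 2 pairs of close neighbours, Glyma10g05190 with Glyma10g05210 on chromosome 10 and Glyma13g19560 with Glyma13g19570 on chromosome 13. Glyma10g05210 had 44.1, 120.97 and 74.8 in the controls, 1745, 1686 and 555 at 6 hr of salt and 2303, 1428 and 1067 at 12 hr. Glyma13g19570 had 19.2, 41.1 and 32.4 in the controls, 787, 637 and 226 at 6 hr and 1222, 622 and 497 at 12 hr. In both, each late salt library lay well above all others. Glyma10g05190 had 303, 180 and 11.5 at 6 hr and 194, 159 and 84.0 at 12 hr, with 0, 2.37 and 3.86 in the controls. Its replicate 3 was thus far lower relative to the others than in its neighbour, with a ratio of 0.0474 against 0.323. Glyma13g19560 had 1.92, 8.70 and 10.8 in the controls, 111, 196 and 57.3 at 6 hr and 243, 137 and 98.3 at 12 hr.

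Of 45 tested C2H2 genes of the list, 21 were called up and 2 down at 6 hr of salt, and 24 up and 7 down at 12 hr. Over all 36691 tested genes, 2382 of 3543 and 2634 of 4535 calls at these hours were up and the rest down. The shares of all tested genes called up were 6.49% and 7.18%. At 6 hr of dehydration 1 of the 45 was up and 2 were down, beside 0.442% and 1.59% of all tested genes. At 12 hr of dehydration 1 was up and 0 were down, beside 0.392% and 1.62%.

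The 2 bHLH members had the emptiest controls among the classes. Proteins of this family bind E-box elements and act in light, hormone and iron responses. Glyma06g44660 had no count in the controls, 200, 190 and 19.9 at 6 hr of salt and 273, 57.4 and 111 at 12 hr. Glyma12g12880 had 0.958, 0 and 0 in the controls, 398, 367 and 26.9 at 6 hr and 537, 207 and 224 at 12 hr. All late salt libraries of both were above all 15 others, beside 1.6% of all gene models, and the rule used these levels. Of 58 tested bHLH genes of the list, 17 were up and 6 down at 6 hr of salt and 14 up and 12 down at 12 hr. Over all 36691 tested genes, 2382 of 3543 and 2634 of 4535 calls at these hours were up and the rest down. The shares of all tested genes called up were 6.49% and 7.18%. At 6 hr of dehydration 2 of the 58 were up and 4 down, beside 0.442% and 1.59% of all tested genes. At 12 hr of dehydration 2 were up and 3 down, beside 0.392% and 1.62%.

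NAC factors are plant-specific regulators of drought responses, senescence and secondary walls. The NAC member, Glyma19g38210, had 0.958, 15.02 and 9.26 in the controls, 32.3, 8.90 and 14.2 at 1 hr of salt, 343, 430 and 44.8 at 6 hr and 465, 326 and 208 at 12 hr. Its 12 hr libraries did not overlap any other group but salt at 6 hr. Of 47 tested NAC genes of the list, 20 were up and 2 down at 6 hr of salt and 26 up and 4 down at 12 hr. Over all 36691 tested genes, 2382 of 3543 and 2634 of 4535 calls at these hours were up and the rest down. The shares of all tested genes called up were 6.49% and 7.18%. At 6 hr of dehydration 0 of the 47 were up and 1 was down, beside 0.442% and 1.59% of all tested genes. At 12 hr of dehydration 0 were up and 0 down, beside 0.392% and 1.62%.

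Among the homeodomain genes, Glyma15g18320 belongs to HD-Zip II in the study's family table, a subfamily known from shade and auxin responses. It had 0, 0.791 and 2.31 in the controls, 4.91, 4.94 and 3.03 at 1 hr of salt, 103, 67.0 and 19.4 at 6 hr and 102, 54.4 and 37.0 at 12 hr. Its 1 hr salt libraries lay above all controls, but the difference did not pass the test (log2 fold change 1.90, SE 0.85, adjusted p = 0.298). Glyma17g04590 had 10.5, 6.32 and 13.9 in the controls, 259, 93.5 and 24.4 at 6 hr and 276, 96.5 and 88.2 at 12 hr. Replicates at 6 hr ran over a wide range in this gene.

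PHD fingers read histone tails. The PHD member, Glyma08g06040, had 45.0, 42.7 and 23.9 in the controls, 787, 411 and 140 at 6 hr of salt and 1655, 780 and 531 at 12 hr. All 6 late salt libraries were above the 15 others, among which the highest, 127, was replicate 3 of dehydration at 1 hr.

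**Figure D5:**
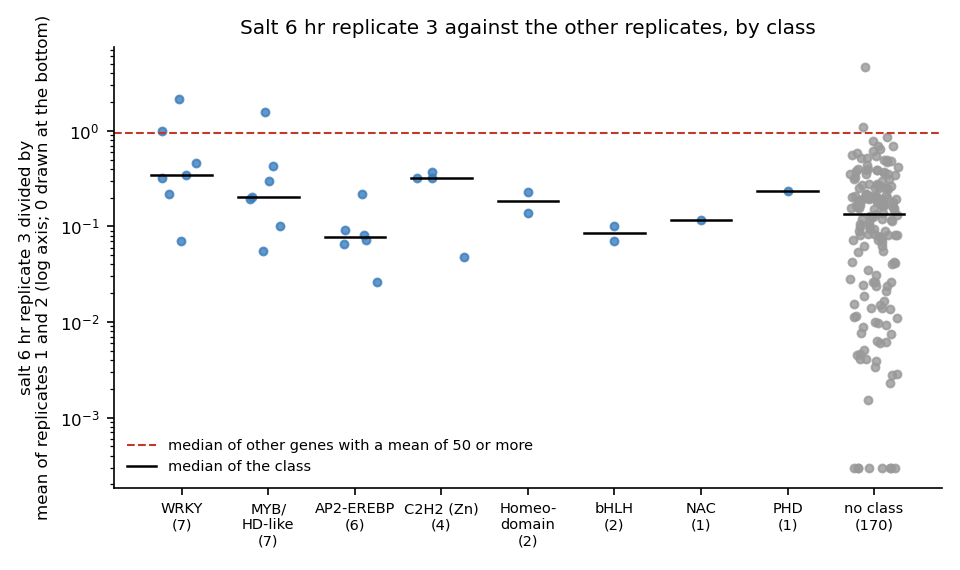
Ratio of salt 6 hr replicate 3 to the mean of replicates 1 and 2 (log axis) for each of the 200 genes, by class with the number of genes in brackets; black lines are class medians and the dashed line is the median of 0.941 over other genes. The 8 genes without a count in replicate 3 are drawn at the bottom; class medians run from 0.0768 for AP2-EREBP to 0.343 for WRKY.

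By class, replicate 3 at 6 hr was at or under the highest control in 1 of the 30 classed members, an AP2-EREBP gene, and in 40 of the 170 without a class. The median ratio was 0.209 over the classed and 0.136 over the other members. No test was made of this difference, since the members were chosen on these values.

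The members lay on all 20 chromosomes, with 1 to 17 on each, and some lay beside each other. With gene models ordered by their identifiers, 41 members (20.5%) had another member within 3 gene models, in 19 runs, of which 3 held 3 members. No share for other genes was computed. Of the members, 22 stood directly next to another member. Coordinates are not given, since the build of the available annotation differs from that of the files. Unique mapping drops reads that copies in such runs share, and counting by strand is not stated, so the levels of overlapping or near-identical neighbours are uncertain.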

How the data were processed

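RNA-Seq was made from soybean roots, with 7 groups of 3 libraries. The authors sequenced single-end reads, aligned them with GSNAP, and deposited raw counts of uniquely mapped reads per gene model of the Glyma1.0 calls. A second deposited table holds the DESeq-normalized signal (DESeq 1.7.10), each count divided by a size factor per library. The counting program and its use of strand are not given in the sources used here. Libraries held 3752853 to 28177205 counts, and the biological coefficient of variation between replicates was 0.306.

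The members came from the normalized values by the rule given in the report, with Python 3.11.15, pandas 2.3.3 and NumPy 2.4.6. The members, the classes and the tests were chosen with earlier results of these data known. Raw counts were filtered with filterByExpr, scaled by TMM and fitted with edgeR 4.0.16 (R 4.3.3, glmQLFit robust, glmQLFTest) in 1 model of the 7 groups, without covariates. DESeq2 1.42.0 and limma 3.58.1 (log2 of normalized value plus 1) were alternatives. A standard error is the log2 fold change divided by the square root of F. On simulated data for salt at 12 against 6 hr with 200 changed genes among 36211, edgeR called 69 of 100 genes changed 4-fold, 83 of 100 changed 8-fold, and 3 unchanged genes. The changed genes were drawn at random from tested genes. Replicates of the members were farther apart than those of other genes, so these rates do not carry over to the members.

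Other alternatives were DESeq2 size factors, 2 other filters, the 6 compared libraries alone, lane (from the study's table of libraries) or replicate number as a term, no fold limit, each library left out, and other pseudocounts, medians, TMM scaling or a narrower dehydration limit in the rule. Leaving out salt 6 hr replicate 3 and salt 12 hr replicate 1 together was added after the data were seen. Where leaving out a library left a group of 2, the fit pooled the spread over groups.

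The genes named were to be the highest scores, the highest levels, the called genes with the smallest p and the top members of each gene list. Of 59048 RefSeq genes, 0 matched the gene models by identifier, so members without a class are mostly given as counts. Keyword gene lists, marker genes, paralog pairs and promoter motifs were not analysed here. The class counts are over tested genes of the study's list.

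Replicate numbers were checked as a pairing by correlating the deviations of same-numbered libraries from their group means. Of 21 pairs of groups, 1 had every correlation over 0.1, salt at 6 and 12 hr (0.153 to 0.452). The pairing there comes from the data, since no label ties the numbers to a shared batch. Over all 63 pairs of libraries the correlations ran from -0.484 to 0.452.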

Additional observations from a re-analysis of the deposited data

How the results depend on the processing

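The choice of members depended on the small constant of the score. With 1 in place of 10, 104 of the 200 genes were chosen again, and with 50, 129. The other changes kept 142 to 193 (a dehydration limit of 0.5, group medians, TMM scaling), and single libraries left out kept 168 to 197. Leaving out salt 6 hr replicate 3 and salt 12 hr replicate 1 together kept 172. The numbers of members called were as follows. For salt at 1 hr, DESeq2's Wald test called 8 in place of 1, where calls over all genes were 1281 in place of 586. Lane as a term called 0 (0 of all genes), and the 6 compared libraries alone 0 (30 of all genes). Leaving out salt 6 hr replicate 3 and salt 12 hr replicate 1 together gave 3 (628 of all genes), and single libraries left out 0 to 3. For dehydration at 1 hr, DESeq2 called 3 (1729 of all genes) and single libraries left out gave 0 to 1. For salt at 6 hr, lane as a term left 2 (33 of all genes), the 6 libraries 127 (1924 of all genes), and single libraries left out gave 155 to 199. For salt at 12 hr single libraries left out gave 171 to 200. For 12 against 6 hr of salt, the 6 libraries gave 0 and single libraries left out 0 to 1. The log2 fold changes of Glyma17g34220 between 12 and 6 hr of salt and of Glyma14g11960 at 1 hr of salt kept their sign in every fit that held them. The single calls for dehydration at 1 hr with a library left out were not all in the same direction. The median ratio of 12 hr to 6 hr of salt, which was not tested, went from 1.15 to 0.886 without salt 6 hr replicate 3, and the members with a higher mean at 12 hr went from 122 to 81. The log2 fold change of Glyma17g34220 was 3.08 to 4.45, and that of Glyma14g11960 was 3.46 to 4.84, over single libraries left out; the latter gene did not pass the filter in the fit of 6 libraries. Leaving out salt 6 hr replicate 3 and salt 12 hr replicate 1 together gave 2.62 and an adjusted p of 0.151 for Glyma17g34220.

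By the check described with the processing, only salt at 6 and 12 hr had every same-number correlation over 0.1. Dehydration at 12 hr also had only positive ones with salt at 6 hr (0.0926 to 0.150) and at 1 hr (0.0551 to 0.231). With replicate number as a block in the edgeR model, the calls of 12 against 6 hr of salt over all genes fell from 53 to 19. The call of Glyma17g34220 was kept (adjusted p = 0.0340). With the replicate block, 1 member was called at 12 against 6 hr and at 1 hr of salt, 0 at 1 hr of dehydration, 189 at 6 hr and 195 at 12 hr of salt. The causes of these shifts were not tested. Members near 0 counts in the controls have imprecise fold changes.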
